A study of Mus musculus with 8 samples.

Results

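The collagens, laminins and other structural proteins of the extracellular matrix were examined in oviducts of adult mice on day 2 of pregnancy (GD2) after neonatal treatment with genistein (Gen), a soy phytoestrogen. Members were the probes of the array whose gene name began with Col, a number and a, or with Lama, Lamb or Lamc and a number, or was 1 of 18 listed names from Fn1 to Loxl1. The rule took 69 of the 27962 gene names on the array, carried by 132 of its 41174 noncontrol probes. Col4a3bp, also taken by its name, encodes a ceramide transfer protein and was left out of the counts, which left 68 matrix genes: 40 collagens, 11 laminins and 17 others. No probe carried the listed name Vcan. The array carries this gene, versican, under the older symbol Cspg2, which the rule does not take, so it was not counted.

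Female CD-1 pups, an outbred stock, were injected subcutaneously on postnatal days (PND) 1–5 with corn oil (control) or with Gen at 50 mg/kg/day in corn oil. At 6–8 weeks of age all mice, controls included, received superovulation and were mated, and oviducts were taken 48 hr after human chorionic gonadotropin (hCG) and freed of embryos. Each group had 4 independent biological replicates, and each RNA sample was labeled with Cy3 for 1 whole-genome Agilent array. For adult samples measured by real-time PCR, the paper used the oviduct pair of 1 mouse as a replicate. Signals below are scaled processed intensities, differences are log2 values of Gen minus control, and p-values are from limma with Benjamini-Hochberg adjustment over 41173 probes. A gene was called at an adjusted p under 0.05, and a gene with several probes was read on its brightest, by mean log2 signal over the 8 arrays.

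Collagen molecules are triple helices of chains in which glycine recurs at a regular step, and fibrillar types such as I and III give connective tissue its tensile strength. Type IV collagen and the laminins, trimers of an alpha, a beta and a gamma chain, form the basement membranes under the epithelium and around muscle cells and vessels. In the oviduct, a thin layer of stroma and a coat of smooth muscle surround a folded epithelium of ciliated and secretory cells, and the matrix proteins are made by all of these cells.

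A repeat with this step was looked for in the array's own probes. Glycine codons (GGN, in capitals below) 9 bases apart, at least 3 in a row in a reading frame without a stop codon (TAA, TAG or TGA), were found on the probe strand of 4 of 78 collagen probes (5.13%) and of 102 of all 41174 probes (0.248%). A run of 3, as many as on the Col13a1 probe, was also on the brightest probe of Tnxb, which is not a collagen gene. The coding frame of the messages was not checked. The 4 collagen probes are shown for the repeat, and because the Col13a1 probe is among those called below.
Col11a2: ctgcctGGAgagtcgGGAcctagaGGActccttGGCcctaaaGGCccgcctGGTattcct
Col13a1: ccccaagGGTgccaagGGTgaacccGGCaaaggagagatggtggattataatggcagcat
Col5a1: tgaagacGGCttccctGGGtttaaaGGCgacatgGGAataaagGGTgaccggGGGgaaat
Col5a3: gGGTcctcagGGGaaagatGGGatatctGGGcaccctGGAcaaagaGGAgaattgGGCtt
In mm7 (NCBI build 35) coordinates, the array's annotation gives these probes as chr17:32131401-32131567 (plus strand), chr10:61385926-61386295 (minus strand), chr2:27994034-27996457 (plus strand) and chr9:20655471-20656200 (minus strand), each span wider than the 60 bases of the probe. The signal was well above background on all 8 arrays for the Col13a1 and Col5a1 probes. The Col11a2 probe was above it on 2 control and 4 Gen arrays, and the Col5a3 probe on 0 control and 2 Gen arrays.

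All control arrays shared 1 slide, and all Gen arrays shared a different one. Treatment and slide therefore cannot be told apart in any difference below. Between 25359 and 28934 probes per array passed the background test in controls, and between 29527 and 31481 did so in Gen-treated mice. Unscaled 75th percentiles were 1908–2432 in controls and 2149–3772 with Gen, and each array had a mean correlation of 0.982–0.987 with the other arrays of its group. Probes above background on no array were called lower in 63.4% of cases, so only detected genes are counted, those whose probe was well above background throughout 1 or both groups. The oviduct marker Ovgp1, which encodes the main glycoprotein of oviduct secretory cells, averaged 517773 in the control arrays and 538265 with Gen.

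Most matrix genes did not pass the test in oviducts of Gen-treated mice. Of 68 matrix genes 64 were detected, 62 of them on all 8 arrays; Col9a1, Col10a1, Col19a1 and Col28a1 were not. None of the 64 was called higher and 3 (4.69%) were called lower. Among 19415 gene names read the same way, 5.37% were called, 3.18% higher and 2.18% lower. Over all 41173 probes, dim ones included, 16.2% were called, 2.17% higher and 14.0% lower. At an unadjusted p under 0.05, limma gave 0 matrix genes higher and 9 lower, beside 9.96% higher and 7.07% lower of the 19415 gene names. Without scaling between arrays that count was 5 higher and 2 lower. Over all probes, dim ones included, 3043 were higher and 8567 lower at this threshold with scaling, and 3912 and 6294 without it. The median difference of the 64 genes was 0.01, with 35 genes above 0 and 29 below, beside 0.03 over all detected gene names. Without scaling between arrays these differences shifted as a whole, to a median of 0.25 for the matrix genes and 0.26 for all detected probes, so each sign below is relative to the 75th percentile. For 53 genes (82.8%) the difference was within 0.5 of 0, beside 84.0% of all detected gene names, and for 51 genes the 95% confidence interval lay within a change of 1 on the log2 scale, which is 2-fold.

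**Figure D1:**
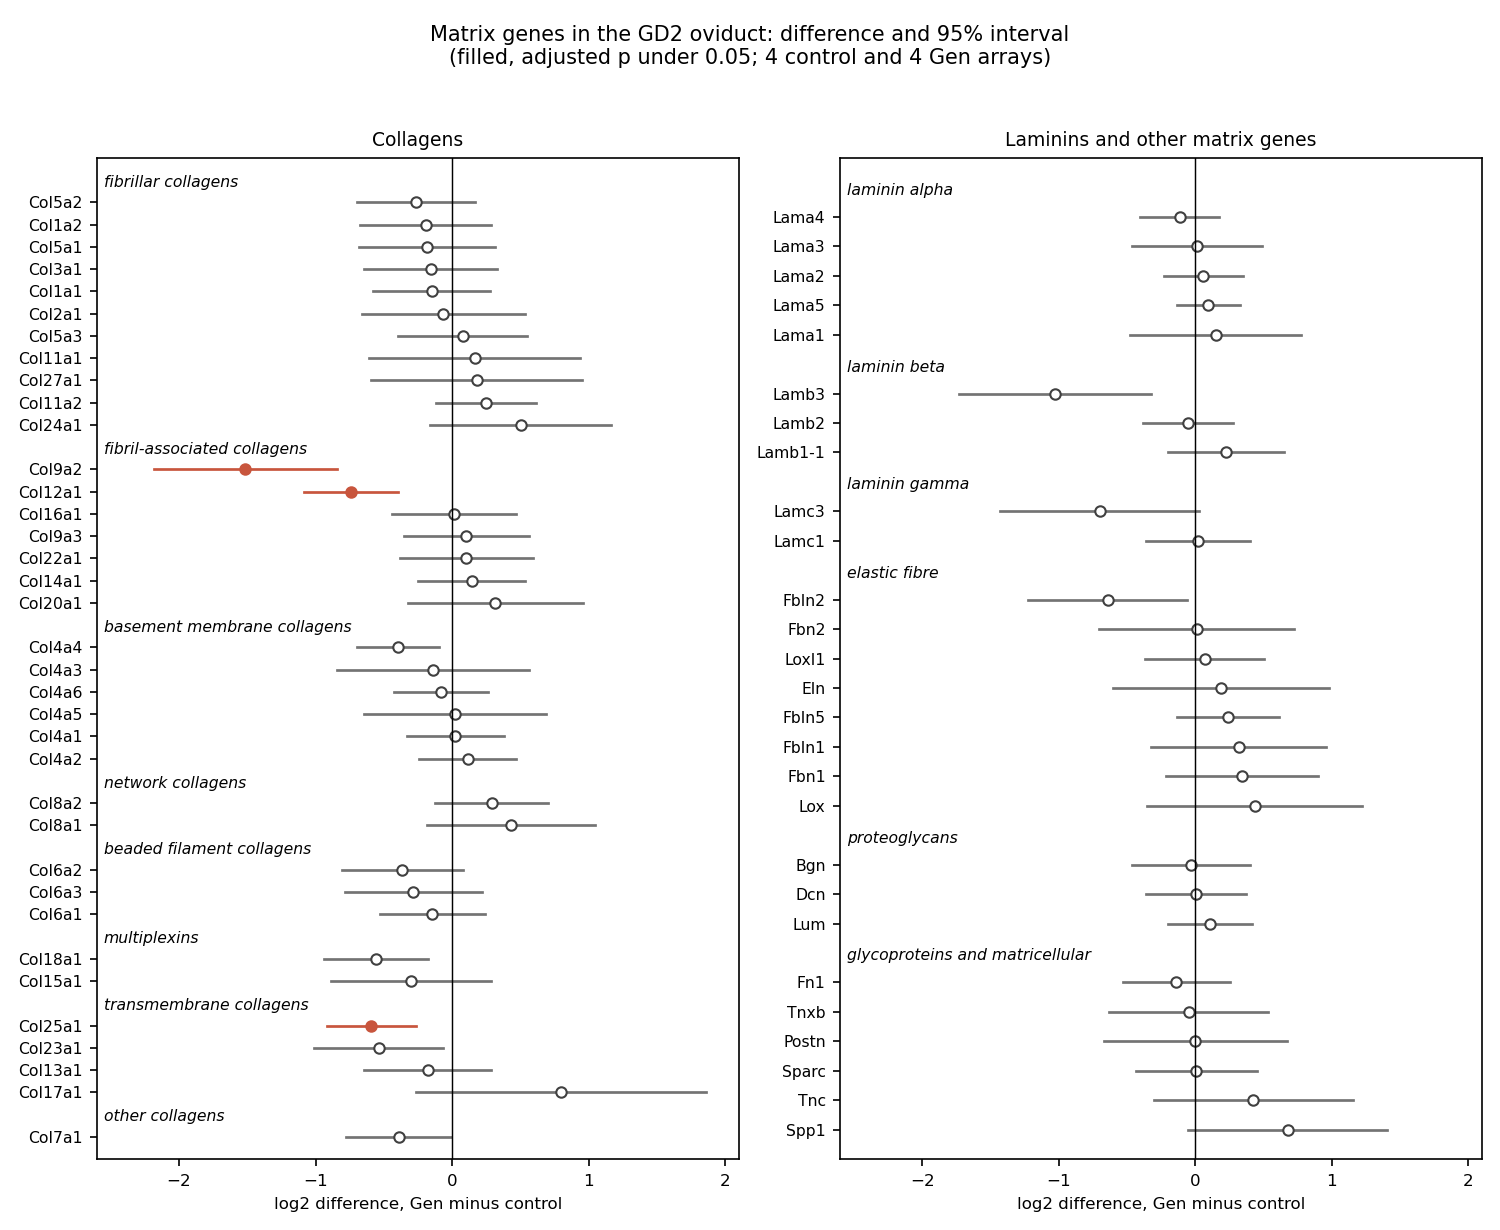
Log2 difference of Gen minus control (x axis) for the detected matrix genes (rows, grouped by type of protein, with 1 gene not drawn), with the 95% interval from limma and filled points at an adjusted p under 0.05. Most genes lie near 0, and the filled points are Col9a2, Col12a1 and Col25a1, at -1.51, -0.74 and -0.59.

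No collagen of the fibrils themselves was called. The chains of type I collagen, the main fibrillar collagen of connective tissue, are encoded by Col1a1 and Col1a2. Col1a1 signals were 158773, 126073, 154760 and 115583 in controls and 99079, 129370, 113031 and 162694 in Gen-treated mice. The Gen arrays spanned the whole control range, with the lowest value in Gen replicate 1 and the highest in Gen replicate 4. The difference was -0.15 (SE, 0.19; 95% interval, -0.58 to 0.28; adjusted p = 0.65). Col1a2 gave -0.19 (SE, 0.21) and Col3a1, the chain of type III collagen of pliable tissues, gave -0.16 (SE, 0.21). Col5a1, whose product starts fibrils and limits their width, gave -0.18 (SE, 0.22). Col6a1, of the beaded filaments of type VI collagen that lie between fibrils and cells, gave -0.14 (SE, 0.17), and the other chains of type VI gave -0.36 (SE, 0.19) for Col6a2 and -0.28 (SE, 0.22) for Col6a3. Col6a3 was called lower when the probes of each gene were averaged. The 11 fibrillar collagen genes were all detected, ranged from -0.26 (Col5a2) to 0.50 (Col24a1) and included no called gene.

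The called genes lay among the collagens that sit on fibrils or in the cell membrane. Col9a2 encodes a chain of type IX collagen, which decorates the type II fibrils of cartilage. Its signals were 1496, 3947, 2260 and 2969 in controls and 856, 1081, 899 and 716 in Gen-treated mice. All 4 Gen arrays were below all 4 controls, and the controls had the wider spread. The difference was -1.51 (SE, 0.29; 95% interval, -2.19 to -0.84; 2.86-fold lower; adjusted p = 0.024). Col9a2 was read on a single probe at chr4:120495071-120495130 of mm7.

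Col12a1 encodes the chain of type XII collagen, which links fibrils to their surroundings in tendon and other dense tissue. Its signals were 470.5, 544.4, 536.1 and 531.1 in controls and 338.8, 325.1, 239.7 and 355.5 in Gen-treated mice. There was no overlap, with control replicate 1 the lowest control and Gen replicate 3 the lowest of all. The difference was -0.74 (SE, 0.15; 95% interval, -1.08 to -0.40; 1.67-fold lower; adjusted p = 0.024), on a single probe at chr9:79680905-79680964.

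Col25a1 encodes a transmembrane collagen known from nerve and from amyloid plaques. Its signals were low, at 71.2, 88.5, 105.5 and 87.1 in controls and 58.5, 60.5, 52.3 and 60.5 in Gen-treated mice. Every Gen array was below every control, although control replicate 1 came close. The difference was -0.59 (SE, 0.14; 95% interval, -0.92 to -0.27; 1.51-fold lower; adjusted p = 0.025). The other Col25a1 probes were above background on no array.

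These 3 calls did not hold when the probes outside the detected set were left out of the fit. The adjusted p was then 0.051 for Col9a2, 0.052 for Col12a1 and 0.073 for Col25a1, no matrix gene was called, and 1.23% of gene names were called. Over all 19 alternatives the adjusted p ranged from 0.021 to 0.14 for Col9a2, from 0.021 to 0.27 for Col12a1 and from 0.024 to 0.48 for Col25a1, and each difference stayed below 0. None of the 3 was called without Gen replicate 1, 2 or 3, Col9a2 alone was called without control replicate 1, and Col25a1 was not called without control replicate 2 or 3. The exact permutation test over the 70 divisions of the arrays gave each a 2-sided p of 0.0286, the smallest that 4 against 4 allows. Any gene whose groups do not overlap has this value, as 12.4% of gene names above background on all 8 arrays did.

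Among the other fibril-associated collagens, no gene was called. Col9a3, the partner chain of Col9a2 in type IX collagen, gave 0.10 (SE, 0.20). Its signal was low, averaging 56.9 in controls and 61.2 with Gen, and was well above background on 3 control and 4 Gen arrays. The remaining chain gene, Col9a1, was above background on no array. Col14a1 gave 0.14 (SE, 0.17) and Col16a1, both of the same type, gave 0.01 (SE, 0.20). Of the 9 genes of this type 7 were detected, with a median difference of 0.10.

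**Figure D2:**
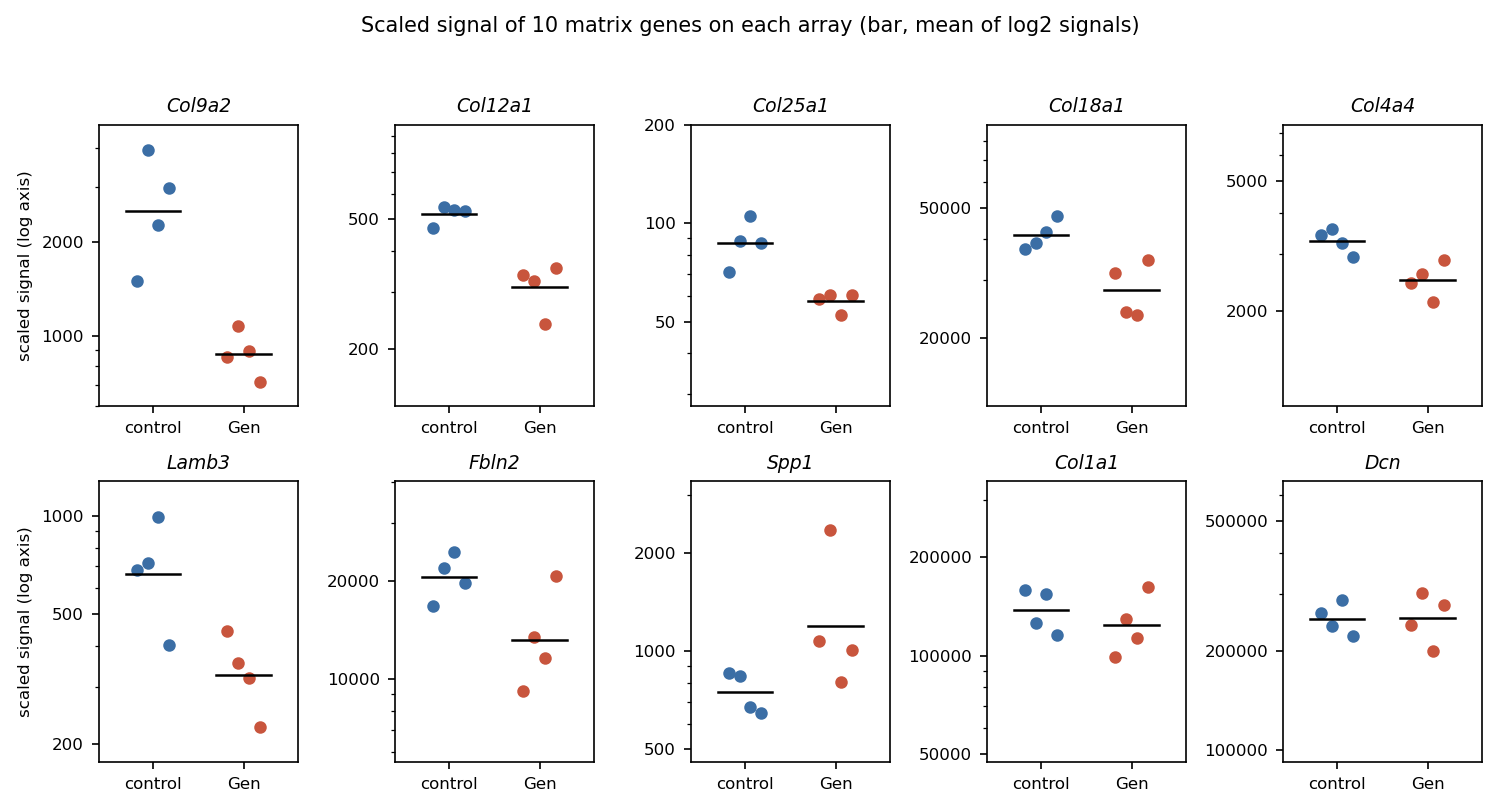
Scaled signal (y axis, log scale) of 10 matrix genes on the 4 control and 4 Gen arrays, each point 1 array and each bar the mean of the log2 signals. The groups are apart for Col9a2, Col12a1, Col25a1, Col18a1 and Col4a4 and overlap for Lamb3, Fbln2, Spp1, Col1a1 and Dcn.

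In the basement membrane, the common chains of type IV collagen differed little, and Col18a1 and Col4a4 were lower on every Gen array without passing the test. Col18a1 encodes the collagen from which the angiogenesis inhibitor endostatin is cut. Its signals were 37386, 38946, 42099 and 47291 in controls and 31613, 23934, 23395 and 34709 in Gen-treated mice. No Gen array reached the lowest control, and the difference was -0.56 (SE, 0.17; 95% interval, -0.94 to -0.18; adjusted p = 0.056). Col18a1 was called lower in 3 of 19 alternatives, with a trend and robust prior, with its probes averaged and without Gen replicate 4, and its adjusted p ranged from 0.031 to 0.54. A further Col18a1 probe 245 bases upstream gave -0.54 (SE, 0.17), with overlapping groups. The related gene Col15a1 gave -0.30 (SE, 0.25).

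Col4a4 encodes a chain of the type IV network of the kidney glomerulus and some other epithelia. Its signals were 3430, 3564, 3229 and 2922 in controls and 2432, 2599, 2134 and 2867 in Gen-treated mice. The groups were apart, but Gen replicate 4 lay just under the lowest control, and the difference was -0.39 (SE, 0.13; 95% interval, -0.69 to -0.09; adjusted p = 0.083). Col4a4 was called with a trend and robust prior, and its adjusted p ranged from 0.047 to 0.78 over the alternatives. A further Col4a4 probe gave 0.08 (SE, 0.27), so both probes of this gene did not give the same direction. Col4a1 and Col4a2, the chains of nearly all basement membranes, gave 0.02 (SE, 0.15) and 0.11 (SE, 0.15). In all, the groups did not overlap for 5 of the 62 matrix genes above background on all 8 arrays (8.06%), all lower in Gen-treated mice. Over all gene names read in this way the groups did not overlap in 12.4%, of which 5.49% were higher and 6.90% lower.

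The laminins gave no called gene. Lama5, Lamb1-1 (the array's name for Lamb1) and Lamc1 encode the chains of laminin-511, found in most adult epithelial basement membranes. Lama5 signals were 14642, 14277, 14315 and 16179 in controls and 16480, 15347, 15764 and 15869 in Gen-treated mice. The groups overlapped within a narrow range, and the difference was 0.10 (SE, 0.10; 95% interval, -0.13 to 0.32). Lamb1-1 gave 0.22 (SE, 0.18) and Lamc1 gave 0.02 (SE, 0.16).

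Lamb3 and Lama3 encode chains of a laminin that anchors epithelium to the matrix under it. Lamb3 signals were 681, 716, 994 and 402 in controls and 443, 354, 319 and 226 in Gen-treated mice. Only control replicate 4 fell within the Gen range, and the difference was -1.03 (SE, 0.30; 95% interval, -1.73 to -0.33; adjusted p = 0.057). Lamb3 was called lower with a trend and robust prior and without control replicate 4. Its partner chain Lama3 gave 0.01 (SE, 0.21). Genes of the other anchoring proteins of epithelium were also not called: Col17a1, of the hemidesmosome, gave 0.80 (SE, 0.46; 95% interval, -0.27 to 1.86) and Col7a1, of the anchoring fibrils, gave -0.39 (SE, 0.17; adjusted p = 0.17).

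The 8 elastic fiber genes were all detected and none was called, with a median difference of 0.21. Eln encodes elastin, Fbn1 the main microfibril protein, and Lox and Loxl1 encode enzymes that crosslink elastin and collagen. Lox signals were 1328, 849, 1238 and 905 in controls and 1257, 1007, 1143 and 2918 in Gen-treated mice. Gen replicate 4 alone lay above the controls, and the difference was 0.43 (SE, 0.34; 95% interval, -0.35 to 1.22). Eln gave 0.19 (SE, 0.34), Fbn1 0.34 (SE, 0.24) and Loxl1 0.07 (SE, 0.19). Fbln2 encodes a fibulin of elastic fibers and basement membranes. Its signals were 16688, 21961, 24421 and 19714 in controls and 9183, 13456, 11630 and 20741 in Gen-treated mice. Gen replicates 1 to 3 lay below all controls and replicate 4 among them, and the difference was -0.64 (SE, 0.25; 95% interval, -1.22 to -0.06; adjusted p = 0.14), with a call when Gen replicate 4 was left out.

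The small leucine-rich proteoglycans, which bind collagen fibrils, differed little. Decorin (Dcn) signals were 261182, 238554, 286699 and 222315 in controls and 240558, 301653, 200630 and 277689 in Gen-treated mice. Both the highest and the lowest value were in Gen-treated mice, and the difference was 0.01 (SE, 0.16; 95% interval, -0.36 to 0.37). Lumican (Lum) gave 0.11 (SE, 0.13) and biglycan (Bgn) gave -0.03 (SE, 0.19).

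Of the adhesive and matricellular proteins, which signal to cells more than they bear load, none was called. Spp1 encodes osteopontin, a secreted phosphoprotein that binds integrins. Its signals were 856, 838, 674 and 645 in controls and 1077, 2342, 802 and 1008 in Gen-treated mice. Gen replicates 1, 2 and 4 lay above all controls and replicate 3 among them, and the difference was 0.68 (SE, 0.32; 95% interval, -0.05 to 1.41; adjusted p = 0.21). Fibronectin (Fn1) gave -0.14 (SE, 0.17), osteonectin (Sparc) 0.01 (SE, 0.19) and periostin (Postn) 0.00 (SE, 0.29). Tenascin-C (Tnc), a protein of healing and remodeling tissue, gave 0.43 (SE, 0.32), and tenascin-X (Tnxb) gave -0.05 (SE, 0.25). The 95% intervals of Postn and Tnc were wide, at -0.67 to 0.67 and -0.30 to 1.15.

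Of the 62 matrix genes above background on all 8 arrays, Gen replicate 4 was the highest Gen array for 38, Gen replicate 2 for 18, replicate 1 for 4 and replicate 3 for 2. Over all gene names, Gen replicate 4 was the highest for 5916 of 16912. Among controls, replicate 1 was the highest for 29 of the 62, beside 6224 of 16912 gene names. In the 10 fibrillar collagens above background on all arrays, the median deviation from the group mean ran from -0.28 to 0.30 over the control arrays and from -0.30 to 0.43 over the Gen arrays.

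**Figure D3:**
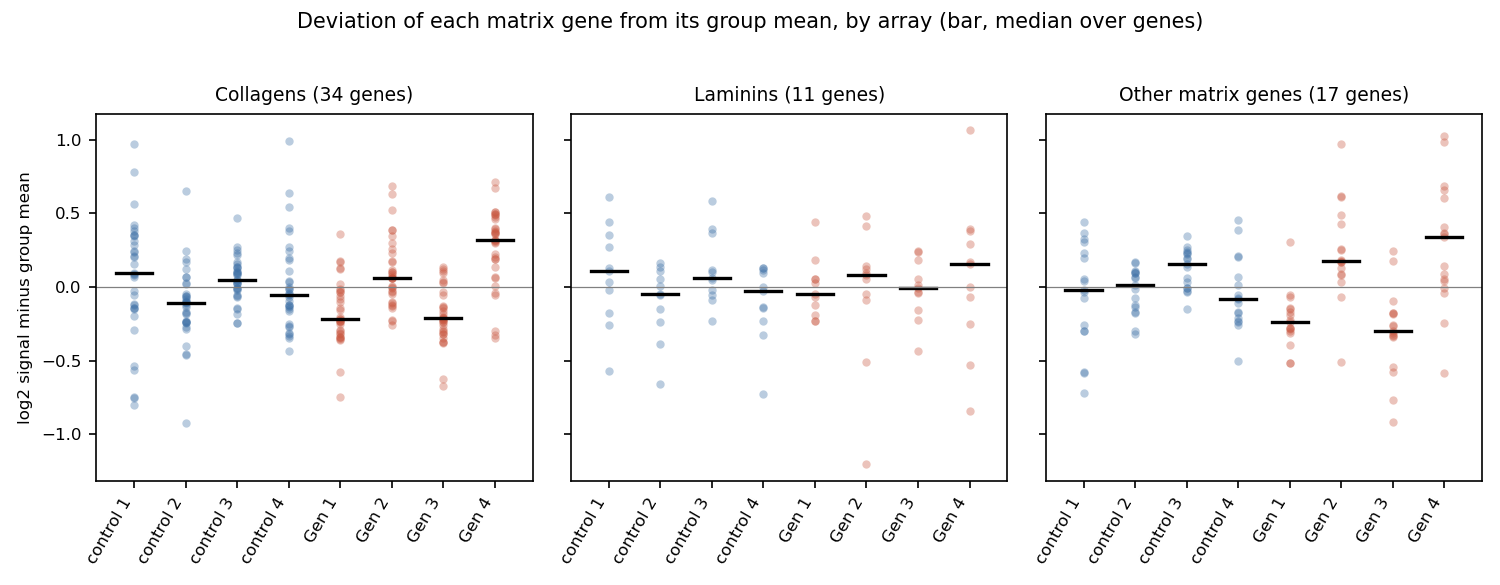
Log2 signal minus the mean of the gene's own group (y axis) on each array (x axis) for 34 collagen, 11 laminin and 17 other matrix genes above background on all 8 arrays, each point 1 gene and each bar the median over genes. Gen replicate 4 sits above its group and Gen replicates 1 and 3 below it in the collagens, with medians of 0.32, -0.22 and -0.21.

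Lists of marker genes of other cells were read beside the matrix genes, since in whole oviducts fewer cells of a type and less RNA per cell cannot be told apart. Of 11 fibroblast and stroma markers none was called, and their summed signal ranged from 523026 to 676493 in controls and from 486398 to 674459 in Gen-treated mice. Of 11 smooth muscle markers, 11 had differences below 0 (median, -0.29), which became 6 without scaling (median, -0.05). Of these Ldb3, a Z-line protein best known from striated muscle, was called lower (-0.87; SE, 0.24). The summed signal of the smooth muscle list was 1091195–1461878 in controls and 906328–1220156 in Gen-treated mice. Of 6 cardiac muscle markers 3 were called lower, Myh6, Myh7 and Tnnt2, with sums of 87947–138771 in controls and 56813–88783 with Gen. Of 9 ovarian steroidogenic markers 4 were called higher, with sums of 5190–30334 and 34370–142987, and of 8 B-cell and plasma cell markers 3 were called higher, with sums of 13651–31344 and 49055–72548. Of 8 macrophage markers Emr1 and Itgam were called higher, with sums of 131289–196392 and 174711–231715. Of 8 oocyte and embryo markers none was called, with a median difference of 2.91 and sums of 476–5348 and 5203–33181. Further calls were Cldn3 (-0.67) of 9 markers of secretory and simple epithelium, 2 higher of 8 for T and natural killer cells, and 1 higher of 6 cumulus matrix genes. None was called among detected markers of endothelium (9), ciliated epithelium (9), proliferating cells (8), adipocytes and mesentery (7), mast cells (6) and stratified squamous epithelium (6), and the defining markers Lep of adipocytes and Ivl of squamous epithelium were not detected. The endothelium markers were above 0 in 9 of 9 (median, 0.21) and the proliferation markers in 8 of 8 (median, 0.54), beside a median of 0.03 over all detected gene names. Their summed signals overlapped between the groups, at 49421–54824 in controls and 51767–66770 with Gen for endothelium. For proliferating cells the sums were 5895–22689 in controls, with the highest in control replicate 1, and 7759–19998 with Gen. Leaving out scaling shifts the differences upward as a whole, so it could not turn the signs of these markers. The part of these cells in the matrix gene results was not tested.

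Probes of the same matrix gene often gave different values. Of 27 matrix genes with further probes above background on all 8 arrays, 32 further probes were set beside the brightest probe of the gene. The further probe had the lower difference in 21 of 32 pairs (65.6%), beside 57.8% of 8000 pairs over all gene names, and the median difference between the probes was -0.10, beside -0.05. Where the further probe lay over 10000 bases upstream of the brightest in the direction of transcription, it was lower in 8 of 11 matrix pairs (72.7%; median, -0.25), beside 61.9% of 1755 pairs over all gene names (median, -0.09). For type I collagen, the 3 Col1a1 probes gave -0.15 on the brightest, -0.23 at 1023 bases upstream and -0.63 at 13798 bases upstream.

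Of these 32 further probes 0 were called higher and 3 lower, at backgrounds of 1.32% and 2.51% among such probes of all gene names. The called probes were both further probes of Col23a1 and the Col13a1 probe printed above, all for transmembrane collagens of cell surfaces and adhesion sites. On the brightest probe, 3 of the 4 transmembrane collagen genes had differences below 0, with 1 called. The other transmembrane gene, Col17a1, gave 0.80 (SE, 0.46). The brighter of the further Col23a1 probes had signals of 981, 1338, 1134 and 1516 in controls and 756, 573, 702 and 826 in Gen-treated mice. The groups were apart, and the difference was -0.79 (SE, 0.18; adjusted p = 0.024, and 0.068 with dim probes left out). The dimmer probe gave -0.79 (SE, 0.17), while the brightest gave -0.54 (SE, 0.21; adjusted p = 0.13) with overlapping groups.

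The Col13a1 probe that holds the repeat had signals of 156.1, 84.6, 128.2 and 145.6 in controls and 64.6, 78.2, 77.6 and 59.4 in Gen-treated mice. Control replicate 2 came close to the Gen arrays without reaching them, and the difference was -0.85 (SE, 0.21; adjusted p = 0.029, and 0.085 with dim probes left out). The brightest Col13a1 probe gave -0.18 (SE, 0.20) with overlapping groups. The Col5a1 probe with the repeat gave -0.37 (SE, 0.17; adjusted p = 0.19), beside -0.18 on the brightest.

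**Figure D4:**
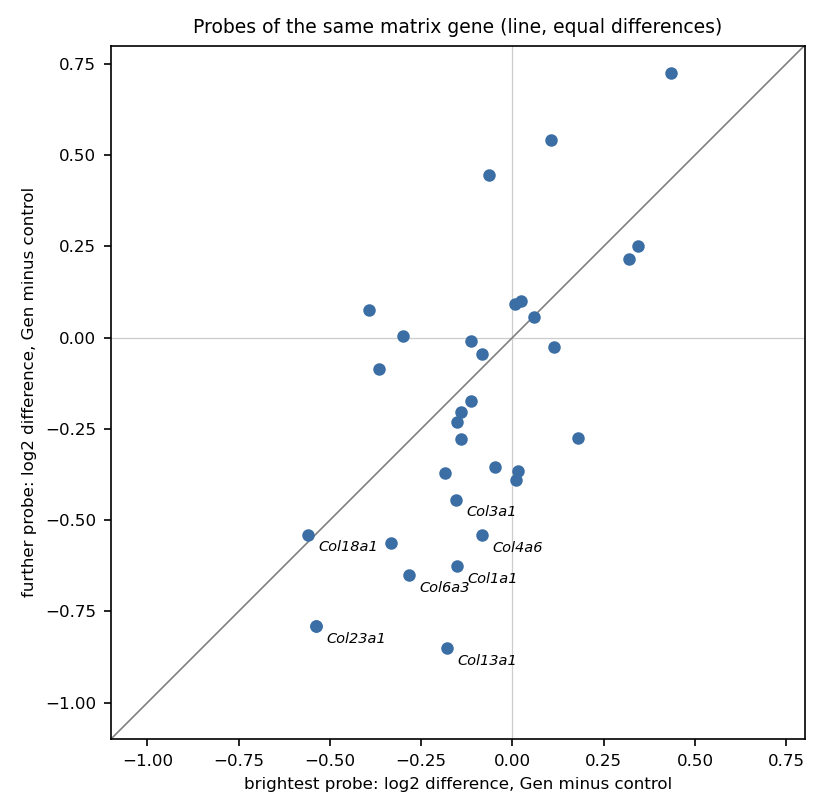
Log2 difference of Gen minus control on a further probe (y axis) against that on the brightest probe of the same matrix gene (x axis), for 32 pairs above background on all 8 arrays, with the line of equal differences. More points lie under the line than over it, 21 of 32, and the lowest are Col13a1 and the overlapping points of Col23a1.

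The enzymes, partners and receptors of the matrix proteins were read from lists of 123 genes, 121 of them with a probe and 106 detected. Of the 106, 4 (3.77%) were called higher and 4 (3.77%) lower, at the backgrounds of 3.18% and 2.18% given above, with a median difference of 0.01. At an unadjusted p under 0.05, limma gave 10 partners higher and 9 lower, beside the 9.96% and 7.07% given above. Without scaling, which shifts the differences upward as a whole, it gave 18 partners higher and 4 lower. All probes, dim ones included, then gave 3912 higher and 6294 lower. None was called among 6 basement membrane partners and 14 elastic fiber partners. Genes that fold, modify and crosslink collagen included 2 lower and 0 higher of 23 detected. Leprel1, a prolyl 3-hydroxylase of collagen chains, had signals of 973, 1303, 1282 and 1272 in controls and 786, 639, 889 and 799 in Gen-treated mice. Control replicate 1, the lowest control, was still above all Gen arrays, and the difference was -0.63 (SE, 0.15; 1.55-fold lower; adjusted p = 0.026). Loxl4, a dim lysyl oxidase of the Lox family, gave -1.11 (SE, 0.21; adjusted p = 0.024) with 1 control array dropped for an outlier spot, and its other probe gave -1.24. The collagen chaperone Serpinh1 gave -0.18 (SE, 0.14).

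Of 14 detected proteoglycans and hyaluronan genes outside the member list, Ncan was called higher and Spock1 lower, and of 22 glycoprotein and matricellular genes, Ctgf was called higher and Coch lower. Ncan, neurocan, a chondroitin sulfate proteoglycan best known from brain, had signals of 471, 280, 205 and 236 in controls and 648, 770, 689 and 500 in Gen-treated mice. Every Gen array was above every control, control replicate 1 being the nearest, and the difference was 1.19 (SE, 0.27; 2.28-fold higher; adjusted p = 0.024). Ctgf, a matricellular growth factor associated with fibrosis, had signals of 20640, 23225, 23720 and 23812 in controls and 33492, 35558, 35428 and 55300 in Gen-treated mice. Both groups were tight apart from Gen replicate 4, and the difference was 0.78 (SE, 0.18; 1.71-fold higher; adjusted p = 0.024).

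Coch, which encodes cochlin of the inner ear matrix, had control signals of 2545, 2160, 1911 and 1661 and Gen signals of 421, 98, 461 and 484. The gap between the groups was wide on every array, and the difference was -2.72 (SE, 0.50; 6.60-fold lower; adjusted p = 0.024). The other Coch probes gave -2.70 and -0.89. Spock1, the proteoglycan testican-1, had control signals of 318.6, 130.4, 108.8 and 99.5 and Gen signals of 40.1, 14.4, 27.9 and 12.2, with 2 of the 4 Gen arrays well above background, and the difference was -2.79 (SE, 0.49; adjusted p = 0.024). These 2 genes were also called with dim probes left out, at adjusted p-values of 0.047 and 0.041, and the other 6 called partners were not (0.053–0.096). Over all 19 alternatives the adjusted p ranged from 0.015 to 0.14 for Coch, 0.022 to 0.16 for Ctgf, 0.022 to 0.18 for Ncan, 0.023 to 0.48 for Leprel1, 0.031 to 0.21 for Itga11 and 0.021 to 0.18 for Cd44, with each difference on the same side of 0. With single arrays left out, Coch, Ctgf and Ncan were each called in 4 of 8 fits, Leprel1 and Cd44 in 1 and Itga11 in 0, and no partner at all was called without control replicate 1 or Gen replicate 1, 2 or 3.

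Of 27 detected matrix receptors 2 were called, both higher. Itga11 encodes the alpha chain of a collagen-binding integrin of fibroblasts. Its signals were 1905, 1206, 1597 and 1664 in controls and 2941, 3678, 2035 and 2663 in Gen-treated mice. No Gen array was as low as the highest control, and the difference was 0.82 (SE, 0.21; 1.76-fold higher; adjusted p = 0.035). Cd44, the hyaluronan receptor, had signals of 7888, 6139, 5703 and 5568 in controls and 9325, 9795, 10709 and 15899 in Gen-treated mice. All Gen arrays were above all controls, and the difference was 0.83 (SE, 0.20; 1.78-fold higher; adjusted p = 0.026), with 1.21 and 1.36 on its other probes. The integrin chain shared by most matrix receptors, Itgb1, gave 0.06 (SE, 0.16), and the collagen receptor Ddr2 gave 0.21 (SE, 0.18). Cd44 is also expressed by leukocytes. The marker sums of B cells and plasma cells given above were higher on all Gen arrays, and those of macrophages overlapped between the groups. The part of these cells in the Cd44 difference was not tested.

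**Figure D5:**
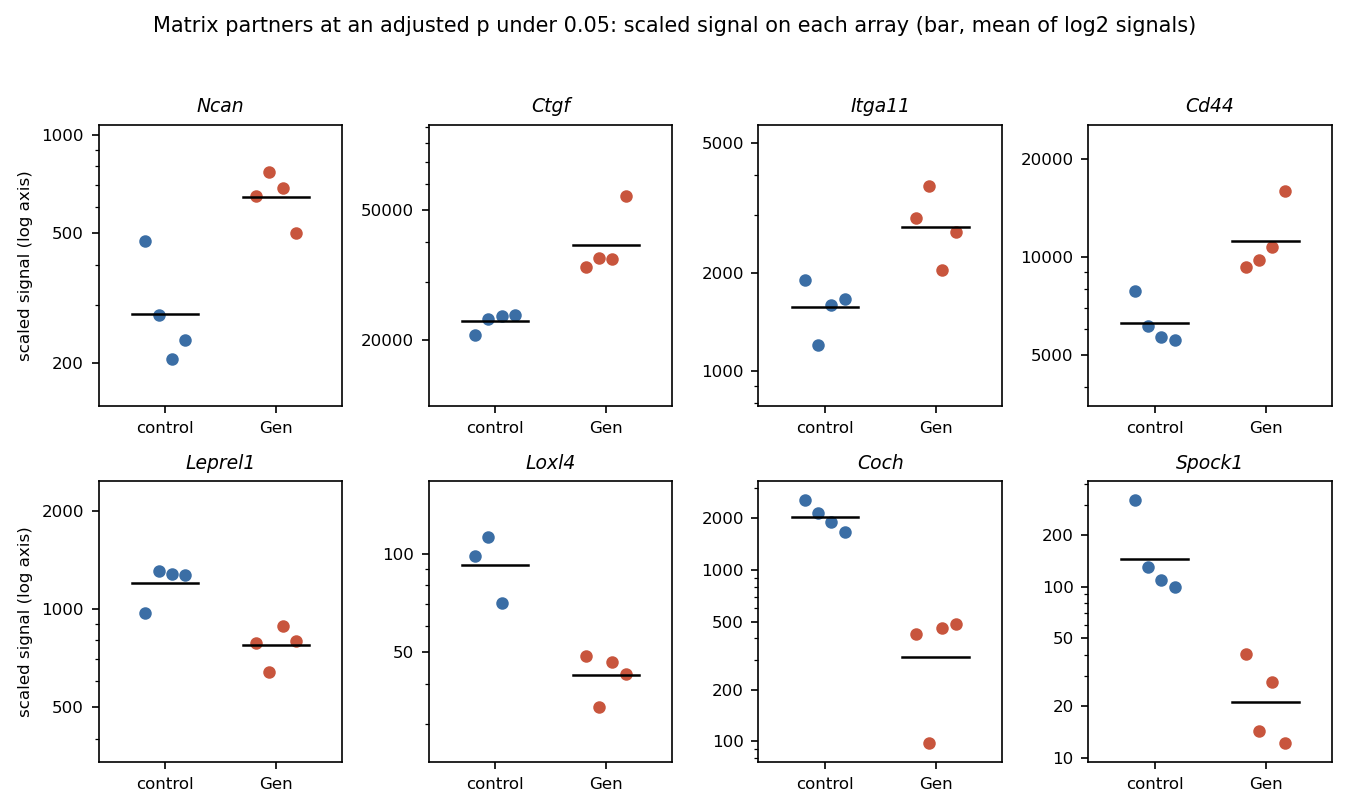
Scaled signal (y axis, log scale) of the 8 called partners of the matrix proteins on the 4 control and 4 Gen arrays, each point 1 array and each bar the mean of the log2 signals. Ncan, Ctgf, Itga11 and Cd44 are higher and Leprel1, Loxl4 (3 control arrays), Coch and Spock1 lower on all Gen arrays.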

How the data were processed

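Oviduct RNA of 4 control and 4 Gen replicates was measured on 1-color arrays, and groups came from the sample labels. The authors deposited Agilent Feature Extraction 9.5 output. Its processed signal, a linear intensity, had been background-adjusted and detrended but not scaled across arrays, and equaled the deposited series values in all 45018 spots. The deposited columns used also include the file's other marks, those for outlier spots and for signal well above background. The later Rosetta Resolver steps were not applied.

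The 1639 control spots and outlier spots were left out, log2 signals of a probe were averaged, and arrays were scaled to the mean 75th percentile. Groups were compared in R 4.3.3 with limma 3.58.1 (lmFit, eBayes) over 41173 of 41174 probes, 1 having no value in 1 group. The data.table package (version 1.17.8) and matplotlib 3.10.9 were also used. The number of arrays limits the precision. In simulated data from 41040 probes, 200 of them changed, 28% of 2-fold and 78% of 4-fold changes were recovered, with 4 unchanged probes called. The fit to the real data called 6674 probes, so its adjusted threshold was less strict and these rates do not carry over to it. A probe was well above background on an array where at least 50% of its kept spots were.

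The members, the partner and marker lists and the naming rule were chosen with earlier results of these data known. The rule names called matrix genes, a set of major members whatever their values, matrix genes whose groups did not overlap, and called partners whose groups did not overlap with signal on all 8 arrays. Other named genes were chosen after their values were seen. Alternatives were quantile normalization, no scaling, the percentile over detected probes, normexp (offset 50), dim probes left out, a floor and outlier spots kept. Others were a trend with a robust prior, a pooled-variance t-test, the replicate block, the mean of a gene's probes, and each array left out. Probe positions are the array annotation's, and their exons were not analysed here. The values of 1 member gene are not reported here, although it is in the counts.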

Additional observations from a re-analysis of the deposited data

Results flagged for a closer look

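Among the genes named by the rule, 1 array stood far from the other 3 of its group in 4 of 70 groups, and chance alone gives about 1 in 20. Col12a1 had 470.5 in control replicate 1 against 531.1–544.4 in the other controls, and Leprel1 had 972.5 in the same array against 1272–1303. Coch had 97.68 in Gen replicate 2 against 421–484 in the other Gen arrays. Ctgf had 55300 in Gen replicate 4 against 33490–35560. In each case the array named stayed on its own group's side of the other group.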

How the results depend on the processing

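Normalization, the handling of dim probes and single arrays decided which genes were called. Over all probes, 892 were called higher and 5782 lower. The counts were 97 higher and 81 lower with quantile normalization, 467 and 173 without scaling, and 103 and 148 with normexp. They were 174 and 146 with dim probes left out, 9 and 11 with a floor, and 0 and 0 with a t-test after Benjamini-Hochberg adjustment. That t-test gave 2872 and 8492 at an unadjusted p under 0.05. For its arrays the paper names an analysis of variance and no such adjustment. With single arrays left out the limma counts ranged from 1 to 1199 higher and from 0 to 5931 lower. The 3 matrix genes called lower became 0 under each of these 6 settings, 5 with a trend and robust prior, 6 with a gene's probes averaged, and 0 to 5 with single arrays left out (0 without Gen replicate 1, 2 or 3, 1 without control replicate 1, 5 without Gen replicate 4). Of the matrix genes 0 were called higher by limma or the t-test under any setting. The matrix partners, 4 higher and 4 lower, became 0 and 0 with quantile normalization, a floor or the t-test, 0 and 2 without scaling or with dim probes left out, 1 and 2 with normexp, and 7 lower with a trend, and ranged from 0 to 3 higher and 0 to 5 lower with single arrays left out. The median of the matrix genes was 0.25 without scaling. No named gene that was called changed sign. The cause of these changes was not tested.

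Same-numbered arrays had correlations of -0.08, 0.11, -0.02 and -0.18 in their deviations from the group means, and differently numbered arrays -0.23 to 0.38. The paper compared Gen-treated mice with control littermates, but the sample labels name no litters. Whether replicate numbers pair the samples cannot be told from these values. With the replicate block, 1 probe was called higher and 0 lower, with 0 matrix genes lower and 0 partners higher and 0 lower, and 2420 probes were higher and 7844 lower at an unadjusted p under 0.05. Across the alternatives, values of single named genes lost their call in 107 cases, gained one in 4 and kept their side of the threshold in 554.

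With 4 arrays per group, 95% intervals lay within a 2-fold change for 51 of 64 matrix genes, dim probes give only bounds, and the shared slide of each group cannot be told apart from treatment.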
